A study of Mus musculus with 8 samples.

Results

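The genes described are 7 homeobox genes of the early mouse embryo, Cphx1, Cphx2, Cphx3, Obox3, Obox5, Obox6 and Crxos, taken from the expression tables by symbol through their Ensembl IDs. All 7 were listed among 19485 genes in the morula table, and 6 were listed among 20348 genes in the blastocyst table, where Obox5 was not. RNA was sequenced from pools of mouse embryos with knockdown (KD) of Smarca5, also called Snf2h, the ATPase of ISWI chromatin remodelers, and from NC embryos, the group the knockdown is set against. The groups were KD morulae, NC morulae, KD blastocysts and NC blastocysts, with 2 libraries in each, 8 in all, and 20 embryos in a library. The series gives collection at E3.75 and E4.25 without assigning a day to a stage, and the sources used here give neither the knockdown agent, the mouse strain nor what NC stands for. The genes were selected on their KD and NC abundance in these same libraries, in which Cphx3 and Cphx1 had stood out in blastocysts. Their KD and NC levels are therefore a description, without a test.

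Homeobox genes encode transcription factors that bind DNA through a homeodomain. The mouse Obox genes form a cluster of oocyte and early embryo genes, some stored in the egg and others transcribed from the embryo's own genome, and work in mouse embryos has tied the family to the activation of that genome. Cphx, the cytoplasmic polyadenylated homeobox gene, is expressed in mouse oocytes and cleavage-stage embryos, and Crxos lies head to head with the photoreceptor gene Crx and encodes a homeodomain protein of preimplantation embryos and embryonic stem cells, also known as EGAM1.

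In mm10 (GENCODE vM21) the genes lie at a pair of loci. Obox3 (ENSMUSG00000066772, chr7:15479825-15639902, minus strand), Obox5 (ENSMUSG00000074366, chr7:15750131-15759800, plus strand), Obox6 (ENSMUSG00000041583, chr7:15833241-15839678, minus strand) and Crxos (ENSMUSG00000074365, chr7:15882617-15904020, plus strand) are neighbours in a stretch of chromosome 7 that holds 54 annotated Obox or Crxos genes, 45 of them pseudogenes. Cphx1 (ENSMUSG00000095975, chr14:25938304-25956356), Cphx2 (ENSMUSG00000098463, chr14:26081516-26096127) and Cphx3 (ENSMUSG00000094817, chr14:26082297-26235744) lie on the plus strand of chromosome 14 in a segment with repeated copies of Duxbl, Plac9 and Tmem254. All 7 are annotated as protein-coding. As annotated, Cphx3 overlaps Cphx2, Duxbl2 and Gm2274 on the same strand, and Plac9b, Tmem254b and Gm19015 on the other strand, because 1 of its transcripts begins within Cphx2.

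The Cphx copies could not be told apart by their coding bases. The annotated coding sequence is 549 bases long in every copy, and there was 1 distinct sequence among them. Its first 300 bases, from the GENCODE transcripts, are shown because the same letters stand for Cphx1, Cphx2 and Cphx3, and the capitals (bases 220 to 237) mark the codons of the conserved core of the homeodomain's DNA-recognition helix.
Cphx coding bases 1 to 300: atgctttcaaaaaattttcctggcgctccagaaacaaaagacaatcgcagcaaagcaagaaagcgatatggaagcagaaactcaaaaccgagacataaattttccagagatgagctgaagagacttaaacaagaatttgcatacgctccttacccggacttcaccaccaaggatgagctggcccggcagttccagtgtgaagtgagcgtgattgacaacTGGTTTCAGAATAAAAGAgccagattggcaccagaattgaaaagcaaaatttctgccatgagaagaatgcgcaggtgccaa

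The identity went on beyond the coding part. All 1649 bases of the coding transcript of Cphx1 matched those of Cphx2 and Cphx3 with 0 mismatches, and all 1710 bases of the Cphx2 transcript matched Cphx3. The annotated transcripts differ in where they start and end (1649, 1710 and 1714 bases) and in short non-coding transcripts. Of the 1673 windows of 150 bases, the read length, in Cphx3 transcripts, 99.8% also occurred in another gene, and 4 did not. The shares were 79.3% for Cphx1 and 88.1% for Cphx2. Obox6 had 0 shared windows of 1195 and Crxos had 5 of 3081 (0.162%), so these genes had sequence of their own along nearly the whole transcript. Of shorter windows, of 31 bases, those shared with another gene made up 14.6% of Obox6 and 26.7% of Crxos.

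**Figure D1:**
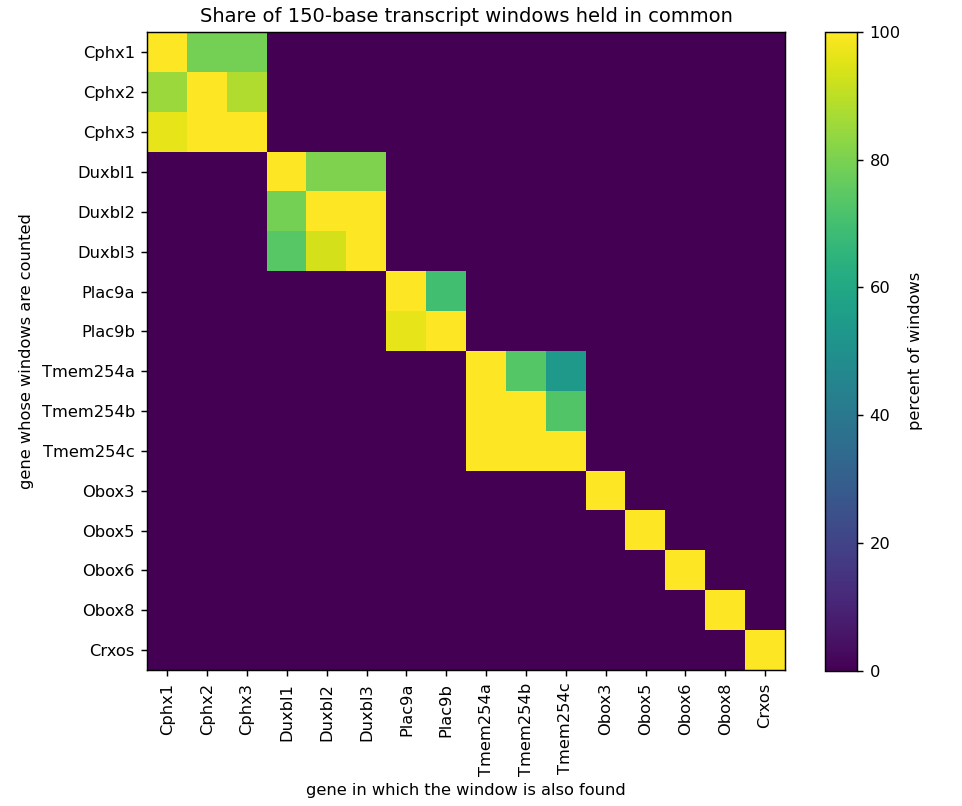
Percent of the distinct 150-base windows in the annotated transcripts of each gene (rows) that are also present in each other gene (columns). The Cphx, Duxbl, Plac9 and Tmem254 copies form blocks of high sharing, from the 3 Cphx genes in the upper left corner downwards, while Obox6 and Crxos share almost none with the genes shown.

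The promoters of the copies were alike too. RefSeq promoter windows (GRCm38.p6, 250 bases before to 50 after the start) were matched for 6 of the 7 genes, all but Obox6. The windows of Cphx2 and Cphx3 were identical over 300 bases, and that of Cphx1 (chr14:25942294-25942593) shared a run of 296 bases with them, displaced by 4 bases. The 250 bases before the Cphx3 start (chr14:26221654-26221903, plus strand) therefore serve for the 3 copies, and the capitals mark TATAAA.
Cphx3 upstream: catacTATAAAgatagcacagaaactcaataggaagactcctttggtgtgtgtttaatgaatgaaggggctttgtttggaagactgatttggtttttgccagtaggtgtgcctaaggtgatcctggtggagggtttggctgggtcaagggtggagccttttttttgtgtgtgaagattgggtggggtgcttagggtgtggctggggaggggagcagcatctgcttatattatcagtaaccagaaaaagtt

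Both strands were searched for 3 motifs, the TATA-like TATAAA and TATATAA and TAATCC, the core bound by homeodomains of the CRX and OTX type. TATAAA stood at -245 in Cphx2 and Cphx3, at -249 in Cphx1 and at -189 in Obox3, and 13.6% of 32851 promoters hold it. TATATAA stood at -30 in Obox3 and -31 in Obox5 (3.24% of promoters). TAATCC was found among the members in Obox3 alone, at -168 on the minus strand of its window (7.06% of promoters). The windows of Obox1, Obox2, Obox3, Obox5 and Obox7 shared an unbroken run of 25 bases, shown as the part common to these family promoters (in Obox5 at chr7:15750260-15750284, plus strand).
Obox shared run: gtgagaattaaggatttgaatattg

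The libraries were checked before the genes were read. The tables hold normalized abundance, a signal per gene that the authors scaled within each stage, and the smallest spacing of low values put the depth at 16177238 to 18568761 reads in morulae and 13958294 to 23304921 in blastocysts, 1 read being worth 0.811 to 1.36 units. Smarca5 was 501 and 470 in KD morulae against 9678 and 9760 in NC morulae, and 906 and 855 in KD blastocysts against 7000 and 8283 in NC blastocysts. All 14 markers of morula and blastocyst cells reached a mean of 10 in both tables. Of 13 cumulus, granulosa and stromal markers 8 were at 0 or not listed in morulae, where the list summed to 265 and 272 in KD against 87.2 and 186 in NC. In blastocysts that list summed to 155 and 390 in KD and 171 and 306 in NC. The sum of 7 oviduct and uterine markers was 124 and 108 in KD and 97.4 and 74.3 in NC morulae. In blastocysts it was 700 and 843 in KD and 703 and 724 in NC, most of it Wfdc2 (650 and 753 in KD, 653 and 699 in NC). The sum of 7 blood markers was 12.5 and 13.3 in KD and 17.1 and 13.5 in NC morulae. In blastocysts it was 14.5 and 95.5 in KD and 19.9 and 181 in NC. The part of these markers in the values below was not tested. In these pools fewer cells of a type and less RNA per cell cannot be told apart.

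The members fell into abundant, moderate and barely detected genes. Per kilobase of the longest coding transcript, Crxos had a level of 7333 ± 176 in KD and 7313 ± 744 in NC morulae, Obox6 had 1186 ± 568 and 941 ± 374, and the Cphx copies summed over the length of Cphx3 had 266 ± 178 and 367 ± 215 (SD, n = 2 in each group). This order held in all 4 morula libraries. Crxos stood above 99.1% of genes with a coding transcript in each of them, and Obox6 above 87.5% to 94.9%. In blastocysts Crxos stayed above 99.1% of genes or more, and Obox6 stood above 45.0% to 58.8%. There the per-kilobase level of Obox6 was 115.5 and 39.0 in KD and 72.0 and 48.8 in NC. That of the summed Cphx copies was 57.6 and 36.9 in KD and 114 and 71.6 in NC. Obox6 was thus the lower in each NC library and the higher in the first KD library, and the levels were close in the second. Not divided by length, Obox6 (52.4) was below the Cphx sum (63.2) in that second KD library. Levels of the 2 stages come from tables scaled separately and are set side by side without a test.

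Obox3 was barely detected at either stage, and Obox5 was barely detected in morulae and not listed in blastocysts. The name of preimplantation genes is therefore not borne out for them at these stages, and earlier stages were not sampled. Obox3 had an abundance of 2.00 and 2.07 in KD morulae and of 0 and 3.12 in NC morulae, and of 6.84 and 3.64 in KD blastocysts against 0 and 1.41 in NC blastocysts. Obox5 had 0 and 4.16 in KD morulae and 0 and 1.08 in NC morulae. These values correspond to a few reads, so no fold change is given. Neither gene reached a mean abundance of 10, the minimum set for the tests across genes. In morulae 5 of the 7 genes did, Cphx2 only through 1 KD library, and in blastocysts 4 did.

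The copy to which Cphx abundance was assigned differed between libraries. In KD blastocysts Cphx1 was listed at 97.8 and 63.2 and Cphx3 at 0 in both libraries, whereas in NC blastocysts Cphx1 was listed at 0 in both and Cphx3 at 195 and 123. Cphx2 was 0.898 and 0 in KD and 1.33 and 0 in NC blastocysts. Nearly all of the Cphx abundance was thus listed under different copies in the 2 groups. Cphx1 held 99.1% and 100% of the sum in KD libraries and 0% in both NC libraries.

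In morulae the assignment was mixed and ran the other way for Cphx1. Cphx3 was 196 and 670 in KD and 286 and 871 in NC morulae, and the ranges overlapped. Cphx1 was listed at 0 and 2.15 in KD and at 81.7 and 18.6 in NC morulae, and the groups did not overlap. Cphx2 was listed at 45.1 in the first KD library and at 0 in the other 3. Cphx3 held 81.3% and 99.7% of the sum in KD morulae and 77.8% and 97.9% in NC morulae. In each of the 4 morula libraries and both NC blastocyst libraries Cphx3 therefore held most of the sum, and in the KD blastocyst libraries it held none.

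**Figure D2:**
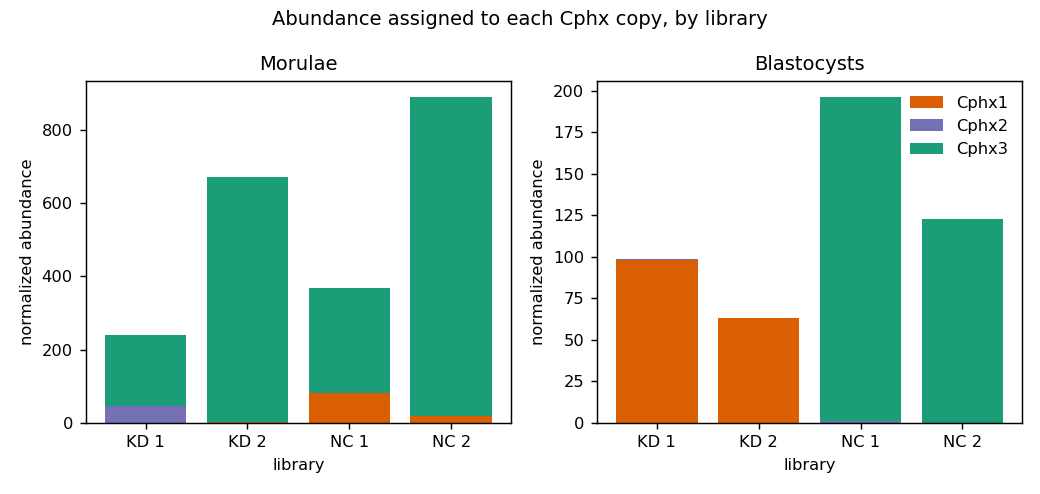
Normalized abundance assigned to Cphx1, Cphx2 and Cphx3 in each library, stacked, with morulae on the left and blastocysts on the right (separate scales). In blastocysts the KD bars are almost wholly Cphx1 and the NC bars almost wholly Cphx3, while the KD bars are also shorter (98.7 and 63.2 against 196 and 123).

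Summing the copies removes the assignment. The sum was 98.7 and 63.2 in KD blastocysts against 196 and 123 in NC blastocysts, or 80.9 ± 25.1 and 159 ± 51.9 (SD, n = 2 each), a ratio of means of 0.508 (log2 difference -0.96). The KD and NC libraries did not overlap. In morulae the sum was 241 and 672 in KD and 367 and 890 in NC libraries, or 457 ± 305 and 629 ± 369 (ratio 0.726, log2 difference -0.51), and the groups overlapped widely. The log2 difference in morulae became 0.23 without KD replicate 1 and 0.13 without NC replicate 2, so its direction rested on which libraries were compared.

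Set against the library of the same number, each KD library had less Cphx. The ratio of the sums was 0.655 for the libraries numbered 1 and 0.756 for those numbered 2 in morulae, and 0.504 and 0.515 in blastocysts. KD was below NC in both numbers for 33.1% of the 13404 morula genes with a mean of at least 10 and for 34% of the 13651 blastocyst genes. The labels do not say that a number marks a shared litter or day. This comparison by number was chosen after the values were seen, and the same values chose the genes. In blastocysts groups that do not overlap fix its direction, so nothing is read from it.

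Obox6, the most abundant of the listed Obox genes, was present in morulae and much lower on the blastocyst scale. Its abundance was 1054 and 2134 in KD and 910 and 1621 in NC morulae, or 1594 ± 763 and 1265 ± 503 (SD, n = 2 each; log2 difference 0.30). The ranges overlapped, and the difference became -0.20 without KD replicate 2 and -0.11 without NC replicate 1. In blastocysts Obox6 was 155 and 52.4 in KD and 96.8 and 65.5 in NC libraries (log2 difference 0.18), again with overlap. The difference there became -0.60 without KD replicate 1 and -0.10 without NC replicate 2.

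Crxos was among the most abundant transcripts at both stages and differed little between groups. It was 16191 and 16751 in KD and 15243 and 17607 in NC morulae (log2 difference 0.01), where the NC libraries enclosed the KD libraries and the sign changed with 1 library left out (-0.10 to 0.11). In blastocysts it was 17670 and 18359 in KD and 19397 and 19854 in NC libraries, or 18014 ± 487 and 19625 ± 323 (SD, n = 2 each). Both KD libraries were below both NC libraries, by a ratio of 0.918 (log2 difference -0.12).

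**Figure D3:**
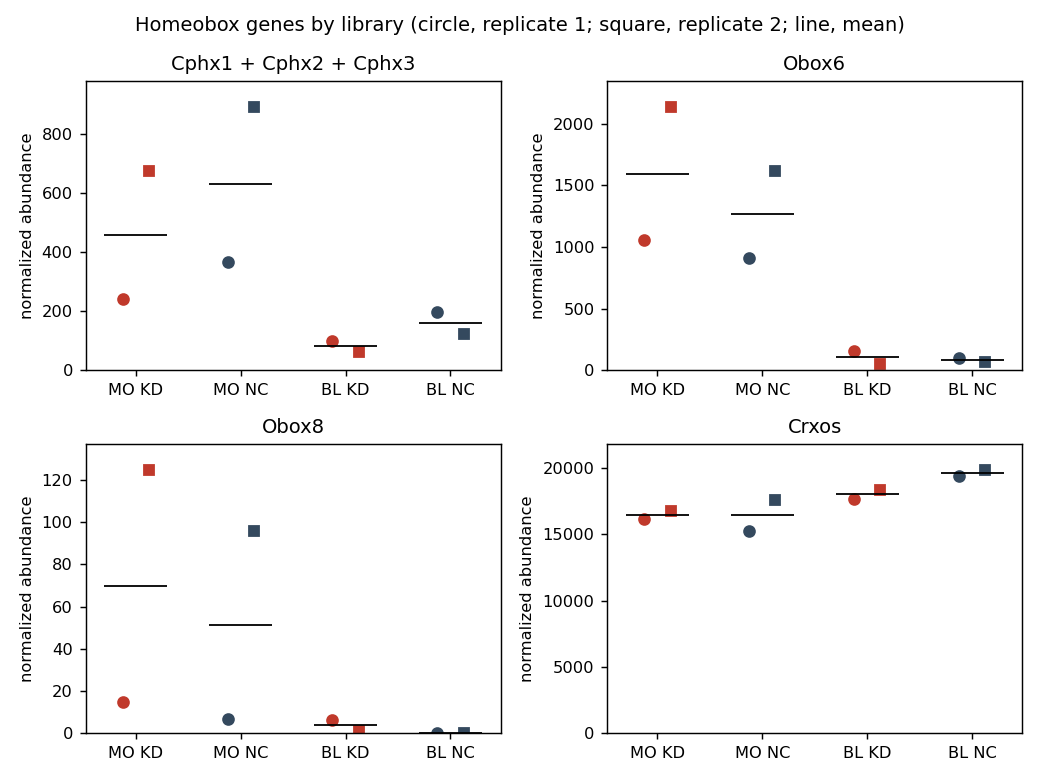
Normalized abundance in each library of the summed Cphx copies, Obox6, Obox8 and Crxos, with KD left of NC in morulae (MO) and blastocysts (BL), whose tables were scaled separately. The morula libraries numbered 2 (squares) are well above those numbered 1 (circles) for Obox6, Obox8 and the Cphx sum in both groups, and Crxos stays between 15243 and 19854.

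Non-overlap of this kind was common in these tables. Among tested morula genes 21.2% had KD wholly below NC and 20.7% had KD wholly above NC, beside 1 member below (Cphx1) and 0 above among the 5 that reached the minimum. In blastocysts the shares were 24.9% below and 24.6% above, beside 2 members below (Cphx3 and Crxos) and 1 above (Cphx1) among 4. Nothing is read from these member counts, since the same values chose the genes. In limma's test across all tested genes 0.00746% of morula genes (1 of 13404, Smarca5, lower in KD) passed an adjusted p of 0.05. In blastocysts 0.0879% passed (12 of 13651), 5 higher in KD (0.0366%) and 7 lower (0.0513%).

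For Obox6, Obox8 and the Cphx sum in morulae, libraries of 1 group lay further apart than the group means, and the spread ran alike in KD and NC. Obox6 was 2.02 times as high in the KD library numbered 2 as in the KD library numbered 1, and 1.78 times in NC. The Cphx sum was 2.79 times as high in KD and 2.42 times in NC. Obox8, an Obox gene outside the member list, was 125 and 14.5 in the KD libraries numbered 2 and 1, and 95.8 and 6.43 in the NC libraries so numbered. Both libraries numbered 2 exceeded those numbered 1 by at least 1.5 times for 5.5% of tested genes, and by any amount for 31.8%. Crxos differed less, by 1.03 times in KD and 1.16 times in NC.

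Genes of the two-cell stage, when the mouse genome is first widely transcribed, were mostly higher in the same libraries. Of 16 tested in morulae, 14 were higher in the libraries numbered 2 in both groups and 0 were lower in both. Over all tested genes 31.8% were higher in both. Some of the 16, such as Usp17lb and Pramef25, reached the minimum mean for testing only through libraries numbered 2. The count thus depends in part on that filter, and the share over all genes is not a like comparison. Among those far above the minimum, Sp110, Nr5a2, Dppa4 and Dppa2 were higher in both groups, and Eif1a in KD only. Zfp352, a two-cell zinc finger gene, was 30.5 and 4.81 in the KD libraries numbered 2 and 1, and 37.2 and 2.78 in NC. Sp110 was 6359 and 3127 in KD and 6143 and 3213 in NC, in the same order. Of 16 oocyte and maternal transcripts 5 were higher and 3 lower in both groups. The counts were 7 and 3 of 14 other paired-class homeobox and Pax genes, and 5 and 11 of 34 homeobox genes of other classes. This comparison by library number was chosen after the values were seen, and what the same-numbered libraries share is not stated in the labels. In blastocysts the order differed: the Cphx sum in the library numbered 2 was 0.640 of that numbered 1 in KD and 0.626 in NC, and Obox6 was 0.337 and 0.677. The blastocyst library numbered 2 was the higher in both groups for 30.2% of tested genes, and by at least 1.5 times for 3.13%. Of 9 two-cell genes tested in blastocysts 4 were higher there in both groups and 2 lower.

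**Figure D4:**
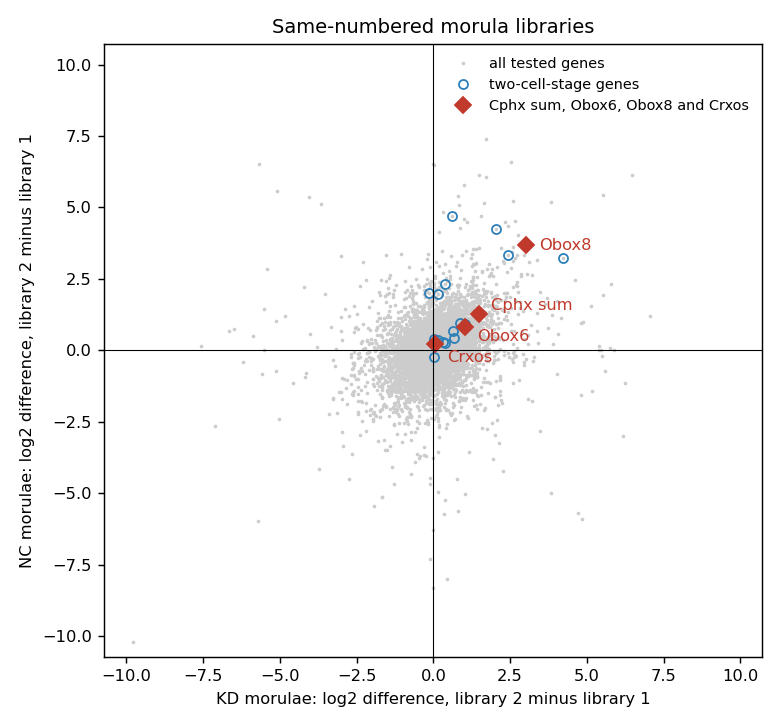
For each tested morula gene, the log2(abundance + 1) difference of the library numbered 2 minus the library numbered 1, in KD on the horizontal and NC on the vertical axis. Obox8 (3.02 and 3.70), the Cphx sum (1.48 and 1.27), Obox6 (1.02 and 0.83) and most two-cell-stage genes lie in the upper right, and Crxos lies close to 0.

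Other Obox genes gave little signal. Of 53 other Obox symbols, not all of them annotated on chromosome 7, 11 were listed in morulae and 8 in blastocysts, and 1, Obox8, reached a mean of 10, in morulae only. Its abundance was 14.5 and 125 in KD and 6.43 and 95.8 in NC morulae (log2 difference 0.72, SE 1.41, limma adjusted p = 0.902), and it did not pass. In blastocysts it was 6.09 and 1.04 in KD and 0 in both NC libraries. The maternally stored Obox1 was 2.73 and 2.58 in KD and 1.37 and 1.87 in NC morulae, and Obox2 was 3.94 and 0.893 in KD and 2.26 and 9.43 in NC morulae. Crx, whose start lies beside that of Crxos, was 29.3 and 21.7 in KD and 30.5 and 17.7 in NC morulae.

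The genes around Cphx are multi-copy as well, and the share listed under each copy varied widely in some cases and little in others. Duxbl, which encodes a double homeodomain protein, has 3 copies with 80.6% to 100% of 150-base windows shared with another gene. In blastocysts Duxbl2 held 78.8% and 3.62% of the Duxbl sum in KD libraries and 5.46% and 19.6% in NC libraries, so libraries of 1 group differed as widely as those of different groups. In morulae its share was steady, at 89.4% and 94.9% in KD and 89.9% and 95.6% in NC libraries. Plac9b held 82.6% to 91.5% of the Plac9 sum in the blastocyst libraries. The cause of the uneven shares was not tested. The Duxbl sum was 314 and 525 in KD and 253 and 337 in NC morulae, and 104 and 57.1 in KD and 73.8 and 107 in NC blastocysts, with overlap at both stages.

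Plac9 and Tmem254, the other repeated genes of the segment, are not homeobox genes. The Plac9 copies summed to 727 and 844 in KD and 1072 and 1045 in NC morulae, without overlap, and to 981 and 805 in KD and 983 and 1036 in NC blastocysts, where the first library of each group nearly coincided. Tmem254a, which shared 73.7% of its 150-base windows with another gene, against 100% for the other copies, was 0 and 9.34 in KD and 38.2 and 46.7 in NC blastocysts (log2 difference -3.75, SE 1.13, limma adjusted p = 0.177) and did not pass. In blastocysts Tmem254a reached the minimum mean only through its NC libraries. The Tmem254 sum was 993 and 847 in KD and 792 and 718 in NC blastocysts. On a list of these copies together with Anxa11 and Fam213a, which lie outside the segment, 9 genes were tested in morulae and 10 in blastocysts, and 0 passed.

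**Figure D5:**
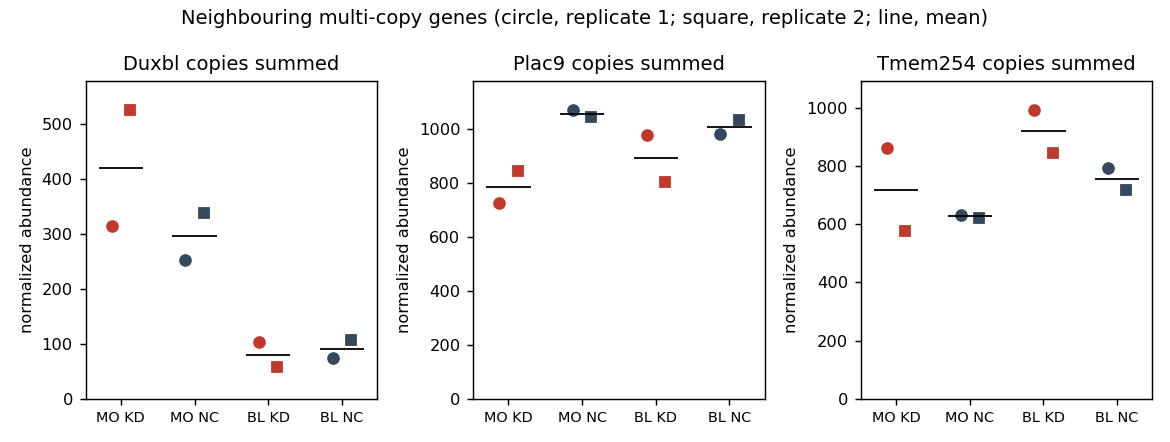
Summed normalized abundance of the Duxbl, Plac9 and Tmem254 copies in each library, KD left of NC, in morulae (MO) and blastocysts (BL), whose tables were scaled separately. KD and NC overlap for Duxbl at both stages, and the Plac9 sum is lower in KD morulae (727 and 844 against 1072 and 1045).

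Other paired-class homeobox genes, the class to which the Obox proteins are related, were tested next, on a list that also held Pax genes. Of 14 tested in morulae 9 were higher and 5 lower in KD, with a median log2 difference of 0.23 against -0.01 over all tested genes, and 0 passed. Pitx1, a factor of pituitary and hindlimb development, was 909 and 890 in KD and 634 and 453 in NC morulae (log2 difference 0.75, limma adjusted p = 0.386). In blastocysts 7 of 12 were higher (median 0.46 against 0.00 over all tested genes), 0 passed, and Pitx1 was 1121 and 938 in KD and 605 and 465 in NC (0.95, adjusted p = 0.0987). Gsc, a factor of the gastrula organizer, was 102 and 148 in KD and 228 and 281 in NC blastocysts (-1.04, adjusted p = 0.147). Otx2, a regulator of epiblast and head development, was 432 and 424 in KD and 326 and 226 in NC blastocysts (0.65, adjusted p = 0.213). For Pitx1 at both stages, Gsc and Otx2 the KD and NC libraries did not overlap, which largely follows from naming genes by smallest p. Among all tested genes KD lay wholly above NC for 20.7% in morulae and 24.6% in blastocysts. KD lay wholly below NC for 21.2% and 24.9%, so nothing is read from this. Pax9, a Pax gene without a homeobox that is counted among the 14, was 35.3 and 53.7 in KD and 9.55 and 14.2 in NC morulae (1.81, limma adjusted p = 0.415). Otx1 was 64.6 and 45.7 in KD against 29.8 and 15.1 in NC morulae (1.31, limma adjusted p = 0.485).

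Homeobox genes of other classes were counted in the same way. Of 34 tested in morulae 23 were higher and 11 lower in KD (median 0.25), and of 36 tested in blastocysts 18 were higher and 18 lower (median 0.07), and 0 passed at either stage. Zfhx2 was 266 and 204 in KD and 116 and 119 in NC morulae (log2 difference 0.98, limma adjusted p = 0.386), and Hhex, an early endoderm factor, was 228 and 226 against 141 and 129 (0.75, adjusted p = 0.426). Zhx1 was 8.65 and 35.1 in KD and 0.341 and 2.70 in NC morulae (adjusted p = 0.452), and it reached the minimum mean only through KD. In blastocysts Zfhx3 was 4083 and 4758 in KD and 2767 and 3316 in NC (0.54, adjusted p = 0.124). Cdx1, a caudal-type factor of posterior patterning, was 188 and 315 in KD and 54.0 and 133 in NC (1.51, adjusted p = 0.185). Pou2f1, the widely expressed factor OCT1, was 751 and 1137 in KD and 1340 and 1324 in NC blastocysts (-0.53, adjusted p = 0.245).

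Two-cell-stage and oocyte transcripts gave no call either. Of 16 two-cell genes tested in morulae 8 were higher and 8 lower in KD (median -0.00), and of 9 in blastocysts 8 were higher and 1 lower (median 0.25). The counts hold genes that reached the minimum mean through 1 library, such as Usp17lb in morulae (NC, 49.6) and Tdpoz4 in blastocysts (KD, 89.1). Tdpoz2 was 296 and 457 in KD and 156 and 251 in NC morulae (log2 difference 0.89, limma adjusted p = 0.462). Of 16 oocyte transcripts tested in morulae 9 were higher and 7 lower (median 0.22), and of 9 in blastocysts 1 was higher and 8 lower (median -0.14). Tle6, of the subcortical maternal complex, was 193 and 123 in KD and 63.9 and 66.3 in NC morulae (1.23, adjusted p = 0.400). Npm2, a histone chaperone of the egg, was 16.4 and 23.1 in KD and 2.75 and 2.06 in NC morulae (adjusted p = 0.416). It reached the minimum mean for testing only through its KD libraries. Over all 6 lists 0 of 90 genes in morulae and 0 of 76 in blastocysts passed limma's test. At an unadjusted p under 0.05 there were 10 (11.1%) and 12 (15.8%), against 10.4% and 17.6% of all tested genes.

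The genes with the most similar profile over the 8 libraries were looked up for each member, by Pearson correlation of log2(abundance + 1) centred within each table, among 12875 genes with a mean of at least 10 in both. The values describe likeness in shared libraries, and no p is attached. They are the highest among all those genes, so high correlations come with the choice. For the Cphx sum they were Smim13 (0.988), Nolc1, a nucleolar phosphoprotein (0.986), and Rcl1, a ribosomal RNA processing factor (0.983). Nolc1 was 6621 and 9413 in KD and 7719 and 11727 in NC morulae, and 4227 and 3269 in KD and 5458 and 4622 in NC blastocysts. Obox6 was most like Fbxl18 (0.977), Gm11517 (0.972) and Acot8 (0.970). Gm11517 was 1078 and 1852 in KD and 865 and 1571 in NC morulae, and 207 and 82.1 in KD and 158 and 81.3 in NC blastocysts. Crxos was most like Hspa2 (0.988), Zbtb6 (0.977) and Dcun1d3 (0.976). Taken singly, Cphx1 was most like Tgfbr2 (0.980) and Baiap2l1 (0.974), and Cphx3 most like Slc29a4 (0.989), Edc4 (0.987) and Nmd3 (0.978). The profiles of Cphx1 and Cphx3 hold the KD and NC values by which they were selected, and their nearest genes share that contrast. Nothing is therefore read from how these differ from the genes nearest to the sum.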

How the data were processed

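The authors deposited 1 table per stage of normalized abundance, a signal per gene. The submitters' processing notes name Salmon 0.14.1, DESeq2 and mm10, without the role of each tool or the annotation. Column sums are close within a table and differ between tables, so levels were compared within a stage. Symbols and coordinates come from GENCODE vM21. Groups and replicate numbers come from the sample titles. Whether replicate libraries come from separate litters is not stated, and p-values then measure only library-to-library spread, possibly technical. No replicate pair was a duplicate (at most 0.0821% of values identical).

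Genes with a mean of at least 10 over a table's 4 libraries were tested with limma 3.58.1 (R 4.3.3) on the log2(value + 1) scale (mean-variance trend, KD minus NC, Benjamini-Hochberg adjustment, threshold 0.05). The test was also tried on simulated data with known changes. Fold changes are on that scale and understate low genes. Values of genes found in 1 library were whole multiples of a step in 97.6% to 100% of cases (tolerance 0.01), which gave the depths. Low values shared by all libraries of a table were whole in 10.7% to 36.2%, so the values were not turned into reads or put to a count test. Genes outside the members were named from a list when they passed, otherwise from the 3 with the smallest p, with no restriction for Obox and chromosome 14 genes. Members and lists were chosen with earlier results of these data known. Alternatives were other pseudocounts, quantile normalization, no filter, no trend, a replicate block and each library left out. One gene that the rule for similar profiles names is not reported here.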

Additional observations from a re-analysis of the deposited data

Results flagged for a closer look

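The abundance assigned to Cphx1 differed between KD and NC in opposite directions at the 2 stages. In morulae the KD libraries were both lower than either NC library, and the KD mean minus the NC mean was -49.1 units of normalized abundance. In blastocysts both KD libraries lay above both NC libraries, and the KD mean minus the NC mean was 80.5. The difference between stages was not tested, and these values were among those that chose the gene. Cphx3 was listed at 0 in both KD blastocyst libraries, against 195 and 123 in NC blastocysts. For the 3 copies summed, the ratio of the KD mean to the NC mean was 0.508 in blastocysts and 0.726 in morulae. In morulae the groups overlapped widely. The log2 difference there became 0.23 without KD replicate 1 and 0.13 without NC replicate 2. Of the 150-base windows in Cphx1 transcripts 79.3% also occur in another gene.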

How the results depend on the processing

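With the replicate number as a block in limma, 892 of 13404 morula genes and 1208 of 13651 blastocyst genes passed, against 1 and 12 without it. On the 6 lists 5 of 90 genes passed in morulae and 5 of 76 in blastocysts, against 0 without the block. These are smaller shares than over all tested genes. The list genes were Pitx1, Tle6, Zfhx2, Tdpoz2 (higher in KD) and Plac9b (lower) in morulae. In blastocysts they were Pitx1, Zfhx3, Cdx1 (higher), Gsc and Tmem254a (lower). Deviations of same-numbered KD and NC libraries from their group means correlated at 0.297 in morulae and 0.146 in blastocysts across genes. With 2 numbers and no label on what they share, the pairing remains a hint from the data. Without the mean-variance trend 0 genes passed at either stage, and without the filter on low values 27 passed in blastocysts. With 1 library left out 1 to 3 blastocyst genes passed, the lone library of its group being assumed to vary like the others. The causes were not tested.

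With 1 library left out, the log2 difference of the summed Cphx copies ran from -1.24 to 0.23 in morulae and from -1.30 to -0.63 in blastocysts, where groups that do not overlap fix its sign. Pseudocount 5 moved the morula log2 difference of Cphx1 to -2.92, against -4.50. Depth limits what can be said of Obox3 and Obox5, at a few reads a library.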
